A study of Mus musculus with 12 samples.

Results

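Intermediate filament genes were followed in mouse neural progenitor cells (NPCs) in which the Srf pathway had been manipulated from several sides. The genes were Nes (nestin), Vim (vimentin), Gfap, Des (desmin), Ina (α-internexin), Nefl and Nefm (neurofilament light and medium chains), Synm (synemin), Krt8 and Krt18. These 10 genes were chosen by name, as filaments of neural, mesenchymal, muscle and epithelial cells, out of 21154 genes with a symbol on the array. They were represented by 16 of 55681 probes: 3 for Gfap, 5 for Synm and 1 for each of the others.

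The NPCs had been differentiated in vitro from mouse embryonic stem cells and were grown with EGF and bFGF on gelatin. In the overexpression experiment they received retroviral EGFP (the control), Srf or Mkl1. In the knockdown experiment they received a hairpin against EGFP (shEGFP, the control) or 1 of the hairpins against the β-actin gene Actb, shActb_1 and shActb_2. Each of the 6 groups had 2 arrays, so that n = 2 for every group value given here. The study drew its NPCs from established lines, 1 of which carries doxycycline-inducible reprogramming factors in addition, and the labels do not say which line was on the arrays. The study calls the Actb knockdown duplicates technical, and no label states separate cultures for the others, so p-values measure the spread between arrays, which may be technical.

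Intermediate filaments are the cytoskeletal polymers that differ most between cell types. Nestin and vimentin are built into the filaments of neural progenitors, GFAP replaces much of them in astrocytes, and α-internexin and the neurofilament chains form those of neurons. Vimentin is also the filament of mesenchymal cells and desmin that of muscle, where synemin joins it. Krt8 and Krt18 are obligate partners that form the keratin filaments of simple epithelia. Srf is a transcription factor that binds a DNA element called the CArG box and controls many actin cytoskeleton genes. Mkl1 is its cofactor, which monomeric actin holds in the cytoplasm.

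Srf acts on DNA, so the sequences upstream of the genes with the clearest changes are shown. RefSeq (GRCm38.p6) gave promoters for 8 of the 10 genes, and Nefl and Nefm had no entry in that table. The 250 bases before the start, 5′ to 3′, of the genes that rose with Mkl1 or with Actb knockdown (Nes, Krt8, Krt18) and of those that rose on the arrays labelled Srf (Ina, Synm) are below, with capitals marking a CArG box with 1 mismatch on either strand.
Nes promoter, chr3:87970843-87971092, plus strand: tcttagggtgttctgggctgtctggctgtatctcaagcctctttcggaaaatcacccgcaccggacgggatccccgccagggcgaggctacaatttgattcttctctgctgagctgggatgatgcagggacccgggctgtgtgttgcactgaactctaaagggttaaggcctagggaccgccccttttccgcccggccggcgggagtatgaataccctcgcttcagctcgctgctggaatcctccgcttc
Krt8 promoter, chr15:102004343-102004592, minus strand: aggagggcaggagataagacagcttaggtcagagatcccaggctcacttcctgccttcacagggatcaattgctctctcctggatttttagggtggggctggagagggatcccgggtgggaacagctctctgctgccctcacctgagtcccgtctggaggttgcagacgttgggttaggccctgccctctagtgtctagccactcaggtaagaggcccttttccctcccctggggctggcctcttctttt
Krt18 promoter, chr15:102027966-102028215, plus strand: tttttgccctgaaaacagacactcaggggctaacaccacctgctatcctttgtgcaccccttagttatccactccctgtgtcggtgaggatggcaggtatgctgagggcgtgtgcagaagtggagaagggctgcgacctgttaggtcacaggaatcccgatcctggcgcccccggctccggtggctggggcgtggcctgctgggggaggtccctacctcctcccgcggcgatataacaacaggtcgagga
Ina promoter, chr19:47014431-47014680, plus strand: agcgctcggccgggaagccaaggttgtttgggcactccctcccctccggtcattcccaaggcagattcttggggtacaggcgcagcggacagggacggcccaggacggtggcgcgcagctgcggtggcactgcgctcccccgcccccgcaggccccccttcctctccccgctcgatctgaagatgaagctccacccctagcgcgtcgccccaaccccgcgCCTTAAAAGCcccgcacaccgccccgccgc
Synm promoter, chr7:67759743-67759992, minus strand: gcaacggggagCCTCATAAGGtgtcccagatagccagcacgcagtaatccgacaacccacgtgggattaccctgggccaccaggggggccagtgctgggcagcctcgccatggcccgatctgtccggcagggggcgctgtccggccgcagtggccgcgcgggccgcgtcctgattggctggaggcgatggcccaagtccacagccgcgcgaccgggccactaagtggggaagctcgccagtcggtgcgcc

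None of the 8 promoters held an exact CArG box, which 1.47% of the 32851 promoters of this length held. With 1 mismatch allowed, a match was present in Ina (bases 30 to 21 before the start), Synm (239 to 230) and Gfap (205 to 196). Such a match occurred in 18.6% of all promoters. The AP-1-like element TGANTCA was searched on both strands too and was in none of the 8, against 6.75% of all promoters. A match describes letters and not a bound site.

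Signals were used as log2 of the processed signal minus the 75th percentile of the array, and every level below is on this scale. Levels of a gene are compared between arrays for the same probe. Brightness is compared between probes only to pick 1 probe per gene and to say which probes weigh most in a summed level. Between 59.3% and 72.5% of probes per array were well above background, and no spot was saturated. The overexpression arrays shared 1 slide, on which EGFP was in another row than Srf and Mkl1. The arrays of shEGFP shared a slide with those of shActb_1, whereas no other group was on the slide that carried shActb_2. For shActb_2, hairpin and slide cannot be told apart. Orders of all 6 groups, as given below, run across both experiments, where treatment, vector and slide cannot be told apart. The controls themselves differed, EGFP lying above shEGFP by 1.08 for Nefl and 0.92 for Krt18. The Actb probe was lower by 0.53 (SE 0.053) with shActb_1 and by 0.65 (SE 0.053) with shActb_2 on the log2 scale. The Mkl1 probes (Mrtfa in the reference) were higher by 0.17 and 0.20 on the arrays labelled Mkl1, which did not pass the test (adjusted p = 0.312 and 0.12, limma). Both Srf probes went against their label, with log2 fold changes of -1.40 and -2.46 on the arrays labelled Srf, and this limit holds for every direction drawn from them. On the same arrays Acta2, Tagln and Cnn1, contractile genes known as Srf targets, were higher than with EGFP by 3.37, 2.34 and 1.14 (adjusted p = 2.54e-06, 0.000334 and 5.19e-05, limma). Where these probes lie relative to the introduced sequences was not determined.

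**Figure D1:**
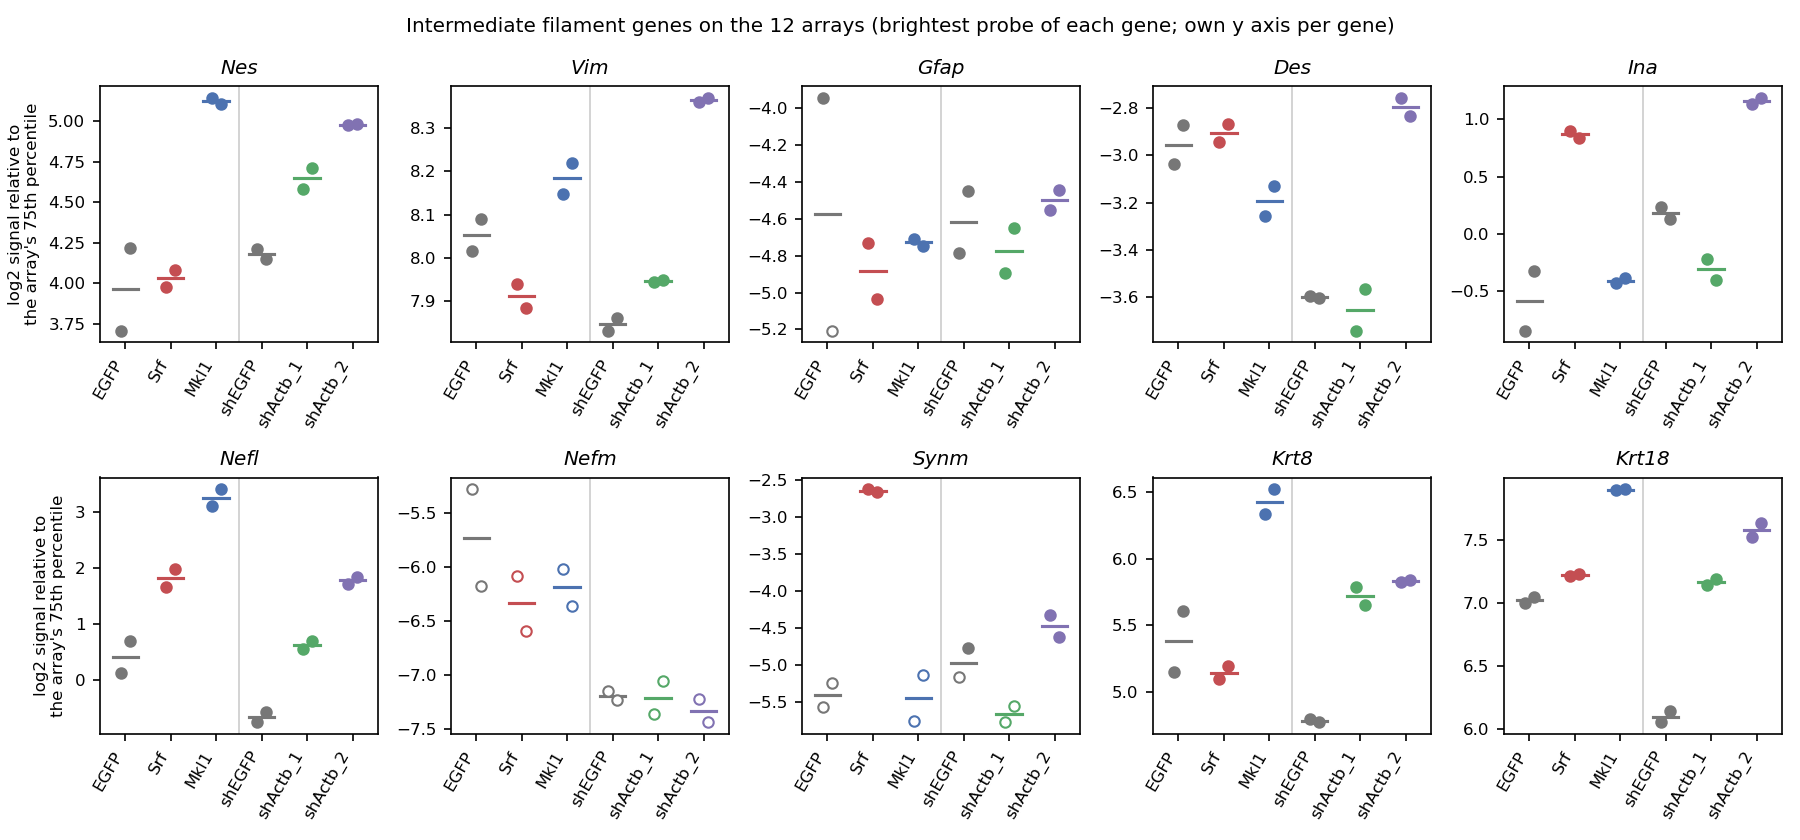
Log2 signal relative to the array's 75th percentile (y axis, its own range for each gene) of the brightest probe of each of the 10 genes in the 6 groups (x axis). Points are arrays, open where the probe was not well above background, and bars are means of 2 arrays. Nefl was higher than its control in all 4 treatments, Krt8 and Krt18 were highest on the Mkl1 arrays, and Synm stood out on the arrays labelled Srf.

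The neuronal filament gene Nefl, which encodes the core subunit of neurofilaments, rose in every treatment. On the EGFP arrays it read 0.14 and 0.71, on the arrays labelled Srf 1.68 and 1.99, and on the Mkl1 arrays 3.11 and 3.41. In the knockdown it read -0.74 and -0.56 with shEGFP, 0.55 and 0.70 with shActb_1 and 1.72 and 1.85 with shActb_2. No treated array overlapped its own control. In RNA from whole cultures, fewer cells of a type and less RNA per cell cannot be told apart. The increase was 2.84 on the log2 scale with Mkl1 (SE 0.20, adjusted p = 0.000278, limma), 7.15-fold, and 1.41 on the arrays labelled Srf (SE 0.20, adjusted p = 0.00233, limma). With shActb_2 it was 2.44 (SE 0.20, adjusted p = 0.000226, limma) and with shActb_1 1.28 (SE 0.20, adjusted p = 0.00882, limma). The order of the group levels was Mkl1, Srf, shActb_2, shActb_1, EGFP and shEGFP. In that order, Srf overlapped shActb_2 and shActb_1 overlapped EGFP. When only the arrays of the compared groups were fitted, the increases with Mkl1 and on the arrays labelled Srf missed the threshold (adjusted p = 0.0562 and 0.0629, limma). The shActb_1 increase missed it without shEGFP replicate 1 (adjusted p = 0.0727, limma) and without shActb_1 replicate 2 (adjusted p = 0.0668, limma).

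Ina, which encodes the neuronal filament protein that appears early in neurons, had another pattern. It read -0.85 and -0.33 on the EGFP arrays, -0.43 and -0.39 with Mkl1, and 0.90 and 0.84 on the arrays labelled Srf. In the knockdown, shEGFP gave 0.24 and 0.13, shActb_1 gave -0.22 and -0.40, and shActb_2 gave 1.14 and 1.19. Only the arrays labelled Srf and those of shActb_2 lay above both arrays of their control. Ina rose by 1.46 on the arrays labelled Srf (SE 0.15, adjusted p = 0.000556, limma), whereas with Mkl1 the difference was 0.18 (95% confidence interval -0.18 to 0.54). With shActb_2 it was higher by 0.98 (SE 0.15, adjusted p = 0.00239, limma), just under the 2-fold limit, and with shActb_1 the difference was -0.49 (adjusted p = 0.0971, limma). The levels followed the order shActb_2, Srf, shEGFP, shActb_1, Mkl1 and EGFP, of which the last 3 overlapped with their neighbours.

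Nefm, the medium neurofilament chain that co-assembles with Nefl, was not well above background on any array, although its probe was printed on 10 spots. Its values ran from -7.43 to -5.28 and were not tested.

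Nes, the classical marker of neural progenitors, was well above background on all arrays. It read 3.71 and 4.22 with EGFP, 3.98 and 4.08 on the arrays labelled Srf, and 5.14 and 5.10 with Mkl1. In the knockdown it read 4.21 and 4.15 with shEGFP, 4.58 and 4.71 with shActb_1 and 4.98 on both shActb_2 arrays. The EGFP arrays lay further apart than those of any other group. Nes rose by 1.16 with Mkl1 (SE 0.15, adjusted p = 0.00234, limma), and without EGFP replicate 1 this became 0.90, under the 2-fold limit. With the compared arrays only, its adjusted p was 0.0944 (limma). On the arrays labelled Srf the difference was 0.068 (95% confidence interval -0.28 to 0.41). With shActb_2 Nes was higher by 0.80 (SE 0.15, adjusted p = 0.00467, limma), under 2-fold, and with shActb_1 by 0.47 without passing the test (adjusted p = 0.102, limma). From highest to lowest the groups were Mkl1, shActb_2, shActb_1, shEGFP, Srf and EGFP. Of neighbours in this order, only Srf and EGFP overlapped, and the EGFP arrays spanned those of shEGFP as well.

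Vim, the filament gene shared by progenitors and mesenchymal cells, moved little. All 12 arrays lay between 7.83 and 8.37. Both shActb_2 arrays (8.36 and 8.37) were above all others, and the shEGFP arrays (7.83 and 7.86) were the lowest. The difference with shActb_2 was 0.52 (SE 0.06, adjusted p = 0.000618, limma), 1.43-fold. Mkl1 gave 0.13 (95% confidence interval 0.00016 to 0.26), shActb_1 gave 0.10 (-0.034 to 0.23) and the arrays labelled Srf gave -0.14 (-0.27 to -0.0087), none of which passed the adjusted test. In the order shActb_2, Mkl1, EGFP, shActb_1, Srf and shEGFP no neighbours overlapped.

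Gfap, the astrocyte filament gene, was close to background. Its brightest probe lay between -5.21 and -3.94 and was well above background on 11 arrays. The other Gfap probes passed on 3 arrays and on none. The EGFP arrays alone spanned the whole range, all neighbouring groups overlapped, and no comparison passed, with log2 fold changes from -0.31 to 0.12 against the controls and confidence intervals within -1.14 to 0.95.

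Des, which encodes the muscle filament protein and was printed on 10 spots, was low but well above background on all arrays. It read -3.04 and -2.87 with EGFP, -2.94 and -2.87 on the arrays labelled Srf, and -3.26 and -3.13 with Mkl1. In the knockdown it read -3.60 on both shEGFP arrays, -3.74 and -3.57 with shActb_1, and -2.76 and -2.83 with shActb_2. The shActb_2 arrays were thus above both other groups of that experiment. With shActb_2 Des was higher by 0.81 (SE 0.09, adjusted p = 0.000619, limma), 1.75-fold. With shActb_1 the difference was -0.055 (95% confidence interval -0.26 to 0.15), with Mkl1 -0.24 (-0.44 to -0.031, adjusted p = 0.0995, limma) and on the arrays labelled Srf 0.049 (-0.16 to 0.26). Ordered by level, the groups ran shActb_2, Srf, EGFP, Mkl1, shEGFP and shActb_1. Srf overlapped EGFP, and shEGFP overlapped shActb_1.

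Synm encodes a large filament protein that co-assembles with desmin and vimentin and binds to costameres. Its brightest probe (A_55_P2052690) read -5.57 and -5.25 with EGFP and -5.76 and -5.14 with Mkl1, not well above background, but -2.62 and -2.67 on the arrays labelled Srf. In the knockdown it read -5.16 and -4.78 with shEGFP, -5.78 and -5.56 with shActb_1, and -4.32 and -4.62 with shActb_2. The arrays labelled Srf were above all others. Because the EGFP signal was at background, the increase is a lower bound for this processing only, at least 5.23-fold (adjusted p = 0.000199, limma). The measured means were -2.64 and -5.41. The fitted log2 difference of 2.77 was 1.03 after the normexp background correction. With shActb_2 the difference was 0.50 (95% confidence interval -0.039 to 1.04, adjusted p = 0.123, limma), and the normexp correction turned it to -0.043. Mkl1 and shActb_1 could not be tested for this probe, because neither they nor their controls had both arrays above background.

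The Synm probes disagreed. A_51_P185593 was well above background on the arrays labelled Srf only (-4.02 and -3.75) and gave an increase of at least 2.21-fold (adjusted p = 0.0256, limma), which missed the adjusted threshold without EGFP replicate 1 or either of the arrays labelled Srf, with the compared arrays only (adjusted p = 0.0979, limma) and within the slide (adjusted p = 0.0529, limma). Its fitted difference of 2.41 was 0.64 after the normexp correction. A_55_P2074353 went the other way, by -0.41 on the arrays labelled Srf (adjusted p = 0.203, limma), and by -0.66 with Mkl1 (adjusted p = 0.0661, limma), where 1 of the 2 arrays was well above background. With shActb_1 neither array was, so that the difference is a bound, at least 1.698-fold lower (adjusted p = 0.0323, limma, with measured means of -6.01 and -5.06). With shActb_2 this probe fell by 1.33 on the log2 scale (adjusted p = 0.00252, limma), to signals not well above background, where only a bound of at least 1.59-fold lower holds. That difference was -0.33 after the normexp correction and -0.95 under quantile normalization. The remaining probes were above background on 1 array and on none.

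**Figure D2:**
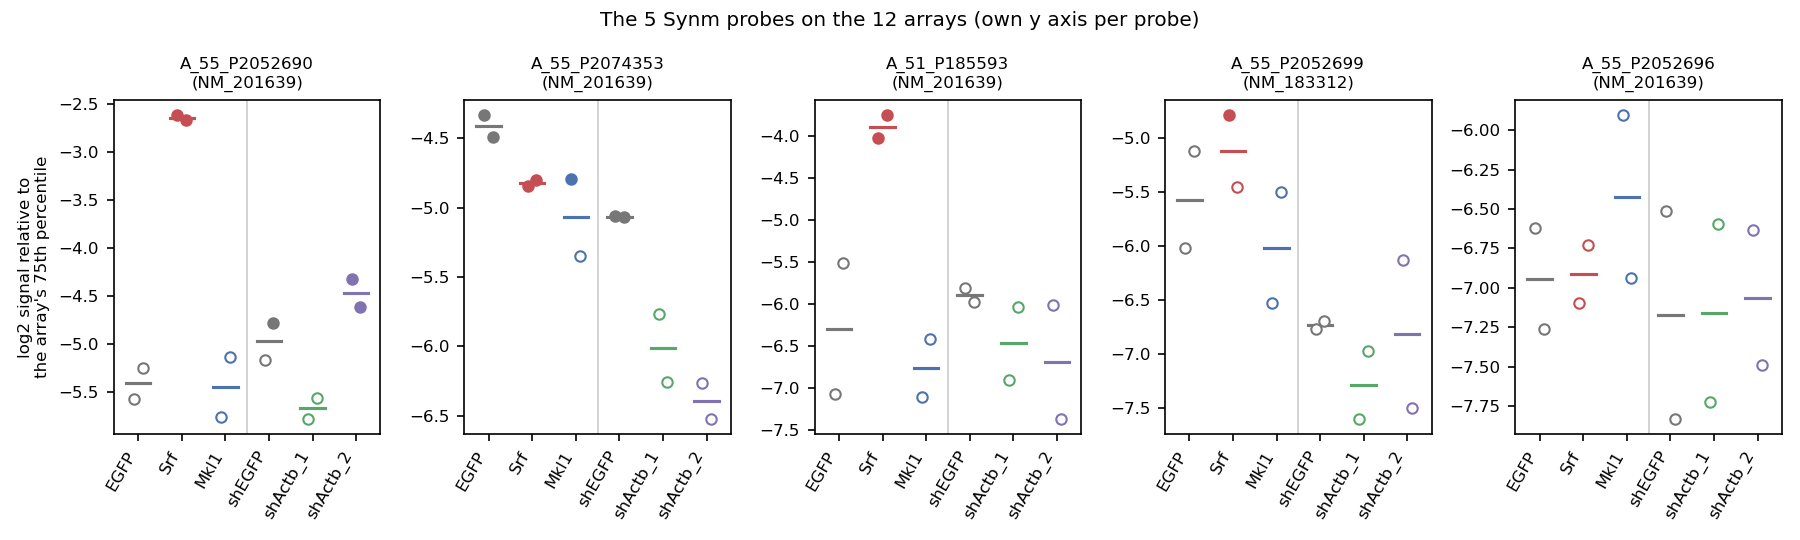
Log2 signal relative to the array's 75th percentile (y axis, its own range for each probe) of the 5 Synm probes in the 6 groups (x axis). Points are arrays, filled where well above background, and bars are means of 2 arrays. Probes A_55_P2052690 and A_51_P185593 were highest on the arrays labelled Srf, whereas A_55_P2074353 was highest with EGFP.

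The keratin partners Krt8 and Krt18 were higher than their controls with Mkl1 and with both hairpins. Krt8, the type II keratin of simple epithelia, read 5.15 and 5.61 with EGFP, 5.09 and 5.20 on the arrays labelled Srf, and 6.34 and 6.52 with Mkl1. In the knockdown it read 4.80 and 4.77 with shEGFP, 5.78 and 5.65 with shActb_1, and 5.82 and 5.84 with shActb_2. Both hairpins and Mkl1 were thus above their controls on every array. Krt8 rose by 1.05 with Mkl1 (SE 0.14, adjusted p = 0.00295, limma) and by 1.05 with shActb_2 (SE 0.14, adjusted p = 0.00133, limma), and with shActb_1 it was higher by 0.94 (SE 0.14, adjusted p = 0.00749, limma), under 2-fold. The arrays labelled Srf gave -0.24 (95% confidence interval -0.57 to 0.10).

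Krt18, the type I partner, read 6.999 and 7.05 with EGFP, 7.21 and 7.23 on the arrays labelled Srf, and 7.89 and 7.90 with Mkl1. In the knockdown it read 6.06 and 6.14 with shEGFP, 7.14 and 7.19 with shActb_1, and 7.52 and 7.63 with shActb_2. All treated arrays lay above their controls. Krt18 rose by 1.47 with shActb_2 (SE 0.06, adjusted p = 2.42e-05, limma) and by 1.07 with shActb_1 (SE 0.06, adjusted p = 0.000161, limma). With Mkl1 it was higher by 0.87 (SE 0.06, adjusted p = 0.000276, limma), 1.83-fold, and on the arrays labelled Srf by 0.20 without passing the test (adjusted p = 0.053, limma).

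The keratin changes lay close to the 2-fold limit. Krt8 with Mkl1 was 0.82 without EGFP replicate 1 and 0.96 without Mkl1 replicate 2. Quantile normalization gave 0.97 for Krt8 with Mkl1, 0.89 for Krt8 with shActb_2 and 0.96 for Krt18 with shActb_1. These kept an adjusted p under 0.05 (limma). With the compared arrays only, however, neither Krt8 nor Krt18 passed the test with Mkl1 (adjusted p = 0.1003 and 0.0666, limma). Both keratins were highest with Mkl1, followed by shActb_2, and lowest with shEGFP. For Krt8 the EGFP and Srf groups overlapped, and for Krt18 no neighbours did.

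**Figure D3:**
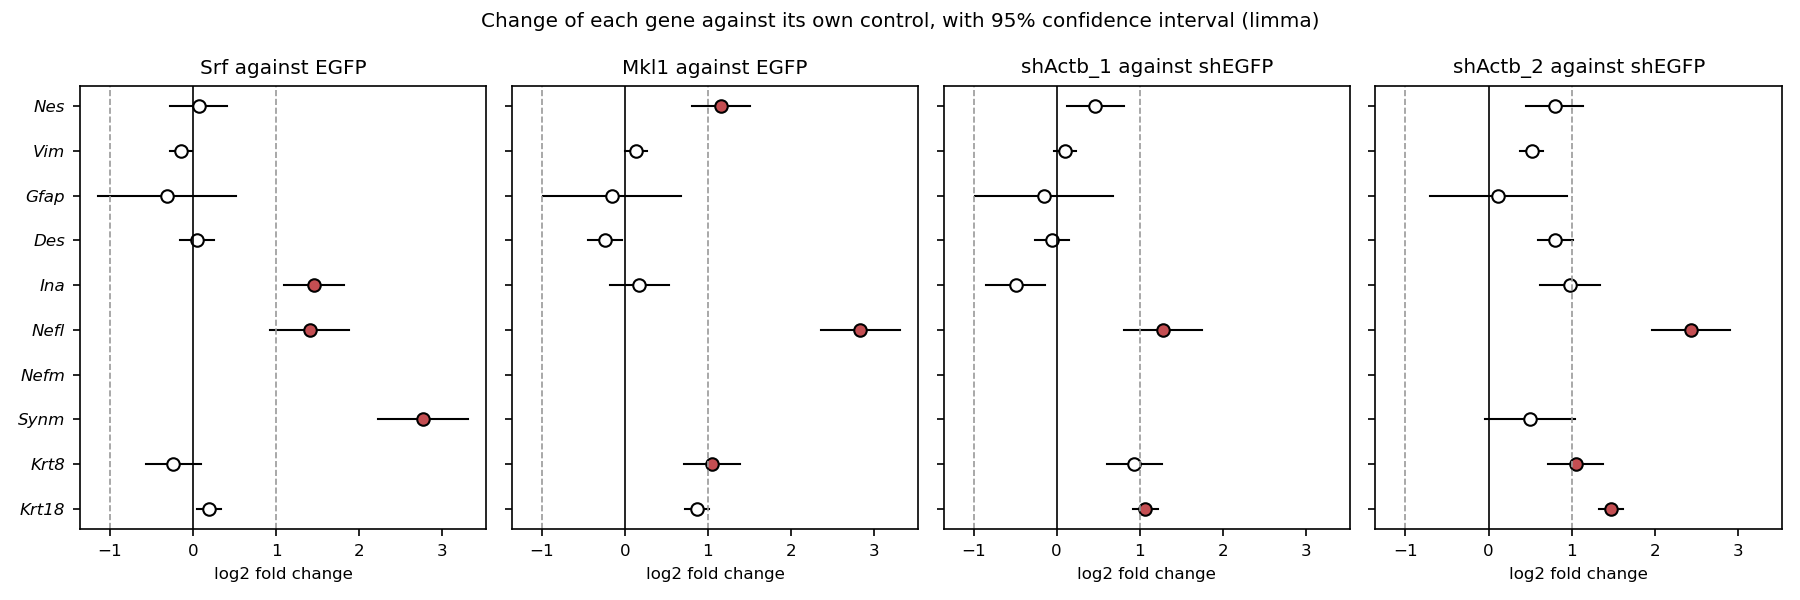
Log2 fold change (x axis) of the brightest probe of each gene (y axis) in the 4 comparisons with a control, with 95% confidence intervals from limma. Red points passed an adjusted p under 0.05 and a 2-fold change, white points did not, dashed lines mark 2-fold, and genes without a point were not tested. Nefl passed in all 4 comparisons, and no gene was called lower.

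By group, 3 of 9 tested genes were called on the arrays labelled Srf (Synm, Ina, Nefl), all higher, where 5.54% of all probes tested were called and 3.29% were called higher. With Mkl1, 3 of 8 were called (Nefl, Nes, Krt8), all higher, against 2.78% and 1.29%. With shActb_1, 2 of 8 were called (Nefl, Krt18), against 1.61% and 0.486%, and with shActb_2, 3 of 9 (Nefl, Krt18, Krt8), against 6.31% and 1.73%. At the adjusted p alone, 3, 4, 3 and 7 of the genes passed, against 25.5%, 20.8%, 9.41% and 40.3% of all probes. The median log2 fold change of the tested genes was 0.068, 0.52, 0.28 and 0.81 in that order, and that of all probes lay between -0.036 and 0.0073. Genes enter these counts through the group in which they were above background, so the counts describe the tested genes only. Synm passed on the arrays labelled Srf through those arrays alone. With its second probe (A_55_P2074353) and that of Gfap in their place, 2 of 8 genes were called on the arrays labelled Srf, and Synm was not among them. Srf and Mkl1 share the EGFP arrays, and the hairpins share the shEGFP arrays.

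The treatments were next compared with each other on the same genes. Between the arrays labelled Srf and Mkl1, 5 of 9 genes were called, 2 higher and 3 lower with Srf, where 5% of all probes were called, 3.26% higher and 1.74% lower. Synm (at least 6.36-fold, adjusted p = 0.000163, limma) and Ina (log2 difference 1.28, SE 0.15, adjusted p = 0.000909, limma) were higher on the arrays labelled Srf. Nefl (-1.43, SE 0.20, adjusted p = 0.00197, limma), Krt8 (-1.29, SE 0.14, adjusted p = 0.000633, limma) and Nes (-1.09, SE 0.15, adjusted p = 0.00157, limma) were lower there than with Mkl1. Krt18 and Vim differed by -0.67 and -0.27, under 2-fold (adjusted p = 0.000269 and 0.011, limma). Under quantile normalization the Nes difference was -0.97, under 2-fold. Synm entered this count through the arrays labelled Srf alone, as neither Mkl1 array was well above background. Its probe A_55_P2074353 gave 0.25 (adjusted p = 0.451, limma).

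Between the hairpins, 3 of 9 genes were called, all higher with shActb_2, where 5.03% of all probes were called and 1.79% called higher. These were Ina (log2 difference 1.48, SE 0.15, adjusted p = 0.00079, limma), Nefl (1.16, SE 0.20, adjusted p = 0.00527, limma) and Synm (at least 2.29-fold, adjusted p = 0.00762, limma). Des, Vim and Krt18 were higher with shActb_2 by 0.86, 0.42 and 0.41, under 2-fold (adjusted p = 0.000774, 0.00212 and 0.00332, limma). Krt8 differed by 0.12 (95% confidence interval -0.22 to 0.45). Synm entered the count through the shActb_2 arrays alone, as neither shActb_1 array was well above background. The Synm difference was 0.26 after the normexp correction (adjusted p = 0.0519, limma) and missed the threshold without shActb_1 replicate 1 (adjusted p = 0.0587, limma).

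**Figure D4:**
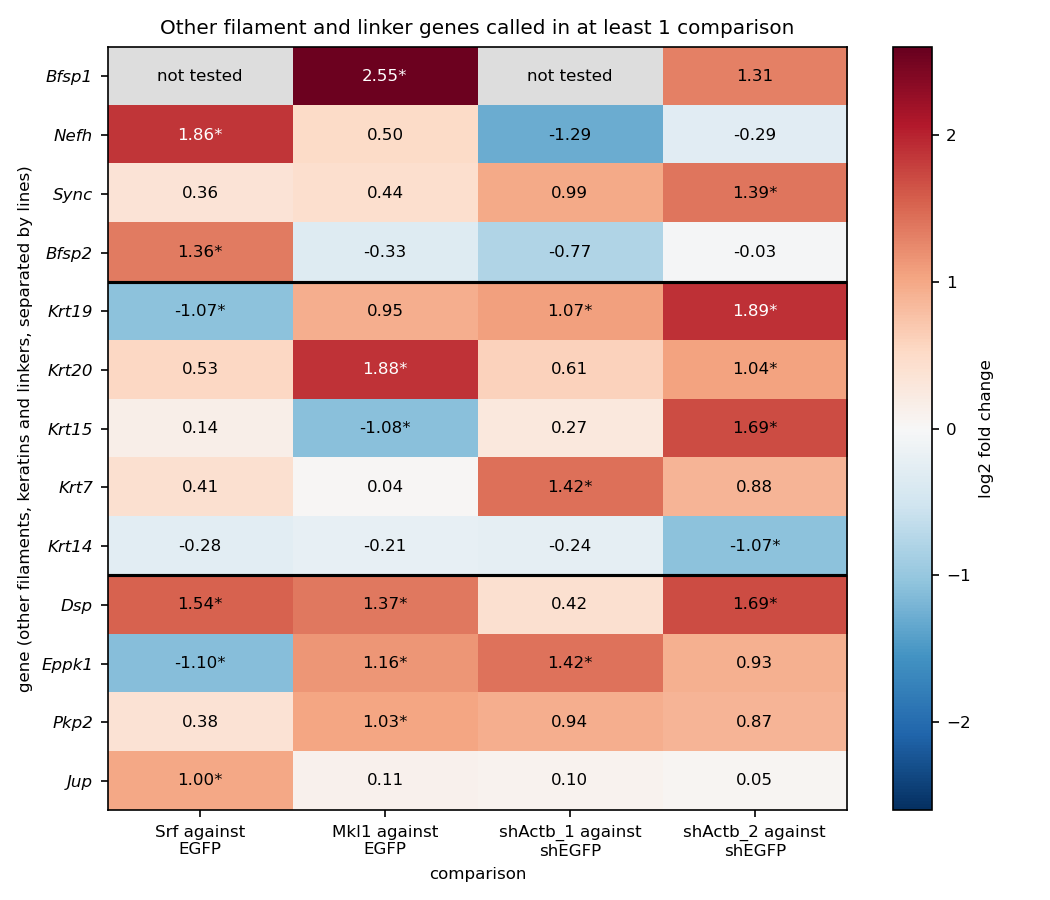
Log2 fold change (colour and printed value) of other intermediate filament genes, other keratins and linker genes (y axis) in the 4 comparisons with a control (x axis), for the genes called in at least 1 of them. Stars mark an adjusted p under 0.05 with over 2-fold change, and grey cells were not tested. Krt19 and Eppk1 were lower on the arrays labelled Srf and higher in the other treatments, although not past the limit in each.

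Other members of the family were examined by lists of known genes. Beside their counts stand the shares of all probes that were called, 5.54% on the arrays labelled Srf, 2.78% with Mkl1, 1.61% with shActb_1 and 6.31% with shActb_2, and those that passed the adjusted p alone, 25.5%, 20.8%, 9.41% and 40.3%. None of the 3 nuclear lamin genes, which form the lamina under the nuclear envelope, was called in any comparison by limma. At the adjusted p alone, 1 passed with Mkl1, 2 with shActb_2, 1 between Srf and Mkl1, and 2 between the hairpins. For Srf against Mkl1 and for the hairpins, the share of all probes passing the adjusted p alone was not taken. Their lamin counts therefore cannot be set against all probes. Lmna was higher by 0.56 with Mkl1 and 0.61 with shActb_2, under 2-fold (adjusted p = 0.00224 and 0.000782, limma). Of 5 other cytoplasmic filament genes, 2 were called on the arrays labelled Srf, 1 with Mkl1, none with shActb_1 and 1 with shActb_2, all higher, with medians over the tested genes of 0.94, 0.44, -0.55 and 0.37. At the adjusted p alone, 3 were higher on the arrays labelled Srf, 1 with Mkl1 and 2 with shActb_2, and with shActb_1 1 was higher (Sync) and 1 lower (Bfsp2, -0.77, adjusted p = 0.0417, limma). Nefh, the heavy neurofilament chain, rose on the arrays labelled Srf by at least 2.57-fold (adjusted p = 0.0182, limma), while its other probe gave -0.49 (adjusted p = 0.541, limma). The lens filament genes Bfsp2 and Bfsp1 rose by 1.36 on the arrays labelled Srf and by at least 2.68-fold with Mkl1 (adjusted p = 0.00184 and 0.044, limma). Nefh on the arrays labelled Srf and Bfsp1 with Mkl1 were counted through those arrays alone. Sync, which encodes a muscle filament protein that binds desmin, rose by 1.39 with shActb_2 (adjusted p = 0.000396, limma) and was higher by 0.99 with shActb_1.

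Of 16 other keratin genes, 12 or 13 were tested in each comparison with a control. The calls were 1 lower on the arrays labelled Srf, 1 higher and 1 lower with Mkl1, 2 higher with shActb_1, and 3 higher and 1 lower with shActb_2. Of all probes, 5.54%, 2.78%, 1.61% and 6.31% were called in that order. The adjusted p alone was passed by 3 of 12, 4 of 13, 4 of 12 and 9 of 12, against 25.5%, 20.8%, 9.41% and 40.3% of all probes. Krt19, a further keratin of simple epithelia, rose by 1.89 with shActb_2 (adjusted p = 2.42e-05, limma) and by 1.07 with shActb_1 (adjusted p = 0.000392, limma), was higher by 0.95 with Mkl1 (adjusted p = 0.000493, limma) and fell by 1.07 on the arrays labelled Srf (adjusted p = 0.000117, limma). Krt20 rose by 1.88 with Mkl1 and 1.04 with shActb_2. It was higher by 0.53 on the arrays labelled Srf and 0.61 with shActb_1, under 2-fold (adjusted p = 0.00443 and 0.00648, limma). Krt7 rose by 1.42 with shActb_1 and was higher by 0.88 with shActb_2, under 2-fold (adjusted p = 0.0191, limma). Krt15, a keratin of basal cells, fell by 1.08 with Mkl1 and rose by 1.69 with shActb_2, and Krt14, another basal keratin, fell by 1.07 with shActb_2. The median over the tested keratins was 0.087, 0.17, 0.20 and 0.41 for Srf, Mkl1, shActb_1 and shActb_2.

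The 13 genes of linkers, which tie filaments to other structures, and of their partners, among them Cryab and Hspb1, were above background on all arrays. Of these, 2 rose and 1 fell on the arrays labelled Srf, 3 rose with Mkl1, 1 with shActb_1 and 1 with shActb_2, with medians of 0.25, 0.43, 0.31 and 0.62. Of all probes, 5.54%, 2.78%, 1.61% and 6.31% were called in that order. At the adjusted p alone, 5 were higher and 2 lower, 7 and 1, 2 and 1, and 9 and 1, against 25.5%, 20.8%, 9.41% and 40.3% of all probes. Cryab (αB-crystallin), a chaperone of desmin filaments, was lower in all 4 comparisons, by 0.74, 0.41, 0.63 and 0.79, under 2-fold (adjusted p = 0.00248, 0.0354, 0.0126 and 0.00146, limma). Hspb1 of the same list went the other way, higher by 0.67, 0.89, 0.32 and 0.58 (adjusted p = 0.00345, 0.00178, 0.116 and 0.00433, limma). Dsp (desmoplakin), which anchors filaments to desmosomes, rose by 1.54 on the arrays labelled Srf, 1.37 with Mkl1 and 1.69 with shActb_2 (adjusted p = 0.000112, 0.000479 and 0.000107, limma). Eppk1 (epiplakin), a keratin-binding plakin, rose by 1.16 with Mkl1 and 1.42 with shActb_1 and fell by 1.104 on the arrays labelled Srf (adjusted p = 0.00426, 0.00301 and 0.00332, limma). With shActb_2 it was higher by 0.93, under 2-fold (adjusted p = 0.00484, limma). The desmosomal genes Pkp2 and Jup rose by 1.03 with Mkl1 and by 1.003 on the arrays labelled Srf. Pkp2 was also higher, under 2-fold, by 0.38 on the arrays labelled Srf, 0.94 with shActb_1 and 0.87 with shActb_2 (adjusted p = 0.0211, 0.00132 and 0.000536, limma).

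Markers of the cell types in which these filaments are known were examined beside them, and their part in the filament changes was not tested. The counts below stand beside the same shares of all probes (at the adjusted p alone 25.5%, 20.8%, 9.41% and 40.3%). Of 8 neural progenitor markers, 3 were higher and 1 lower at the adjusted p on the arrays labelled Srf, 4 were lower with Mkl1 and 4 with shActb_1, and 1 was higher and 2 lower with shActb_2, with medians of 0.087, -0.62, -0.44 and -0.30. Slc1a3, the glutamate transporter of radial glia, fell with Mkl1, shActb_1 and shActb_2 by 1.37, 1.30 and 1.11, and the transcription factor gene Sox2 fell on the arrays labelled Srf and with shActb_1 by 1.05 and 1.01. With Mkl1 Sox2 was lower by 0.89, under 2-fold (adjusted p = 0.00578, limma). Fabp7 fell by 1.27 with shActb_1 and was lower by 0.66 with Mkl1, under 2-fold (adjusted p = 0.0491, limma). On the arrays labelled Srf, Fabp7, Prom1 and Pax6 were higher by 0.93, 0.89 and 0.35, under 2-fold (adjusted p = 0.0112, 0.00072 and 0.0265, limma). The summed linear level of this list, relative to the 75th percentile, was 6.73 to 8.12 with EGFP, 5.57 to 6.09 on the arrays labelled Srf and 3.90 to 3.99 with Mkl1, and 7.12 to 7.22 with shEGFP, 3.80 to 4.00 with shActb_1 and 4.74 to 5.06 with shActb_2. Such a sum follows the brightest probes, here Slc1a3 and Sox2, and does not register changes of dim ones. Of 6 astrocyte markers, 4 were tested. At the adjusted p, 1 was higher and 2 lower on the arrays labelled Srf, 1 was lower with Mkl1, 1 with shActb_1 and 3 with shActb_2, with medians of -0.47, -0.33, -0.32 and -0.65. Aldoc fell by 1.16 on the arrays labelled Srf. Aldh1l1 was higher there by 0.78 and gave -0.98 with shActb_1 and -0.70 with shActb_2, all under 2-fold (adjusted p = 0.00136, 0.00152 and 0.00169, limma). The markers S100b and Slc1a2 were not well above background in any overexpression group.

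Among 8 neuron markers, 2 were higher and 2 lower at the adjusted p on the arrays labelled Srf, 2 were lower with Mkl1, 2 with shActb_1 and 4 with shActb_2. The medians were -0.19, -0.28, -0.025 and -0.54. Stmn2 and Map2 were lower in all 4 comparisons. Stmn2, a regulator of microtubules in axons, fell by 3.88 on the arrays labelled Srf, 1.46 with Mkl1, 1.41 with shActb_1 and 1.29 with shActb_2. Map2, a dendritic microtubule protein gene, fell by 1.49, 1.27 and 1.14 with Mkl1, shActb_1 and shActb_2 and gave -0.87 on the arrays labelled Srf. Tubb3 rose by 1.53 on the arrays labelled Srf, where Snap25 was higher by 0.54, under 2-fold (adjusted p = 0.0282, limma). The summed level of the neuron list was 15.3 to 15.7 with EGFP, 12.2 to 12.8 on the arrays labelled Srf and 10.7 to 11.46 with Mkl1. It was 17.4 to 19.2 with shEGFP, 14.0 to 14.9 with shActb_1 and 11.8 to 12.9 with shActb_2. Rbfox3, the neuronal nuclear antigen gene, was not well above background on any overexpression array.

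All 8 mesenchymal markers were well above background in every group, and the calls among them were falls. Of the 8, 4 were lower at the adjusted p on the arrays labelled Srf, 1 was higher and 3 lower with Mkl1, 2 were lower with shActb_1 and 4 with shActb_2. Pdgfrb fell by 1.69 with Mkl1, 1.87 with shActb_1 and 1.75 with shActb_2. Prrx1 fell by 1.23 with Mkl1. It was lower by 0.73 on the arrays labelled Srf, 0.57 with shActb_1 and 0.65 with shActb_2 (adjusted p = 0.00491, 0.0312 and 0.00545, limma). Its other probe fell by 1.03 with Mkl1 and 1.27 with shActb_2 (adjusted p = 0.00188 and 0.000395, limma). Col1a2 fell by 1.096 on the arrays labelled Srf. It was lower by 0.45 with Mkl1 and 0.65 with shActb_2 (adjusted p = 0.0168 and 0.00189, limma). The summed level of this list was 206 to 210 with EGFP against 160 to 162 on the arrays labelled Srf and 157 to 194 with Mkl1. It was 176 to 186 with shEGFP, 177 to 179 with shActb_1 and 143 to 147 with shActb_2.

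Smooth muscle genes rose in all 4 comparisons. Of the tested genes, 4 of 5 were called higher on the arrays labelled Srf, 5 of 5 with Mkl1, 3 of 4 with shActb_1 and 5 of 5 with shActb_2, against 3.29%, 1.29%, 0.486% and 1.73% of all probes. Acta2, the smooth muscle actin gene, rose by 3.37, 6.93, 4.42 and 5.04, and Cnn1 (calponin) by 1.14, 6.56, 4.23 and 4.76 in that order. Myh11 was counted through the treated arrays alone, as it was not well above background in either control. With shActb_1 it was not tested. The summed level was 15.3 to 16.5 with EGFP, 44.0 to 49.4 on the arrays labelled Srf and 159 to 166 with Mkl1, and 15.5 to 18.3, 104 to 109 and 149 to 152 with shEGFP, shActb_1 and shActb_2. Des was called in none of the 4 comparisons, although it was higher by 0.81 with shActb_2, under 2-fold (adjusted p = 0.000619, limma). Of 8 striated muscle markers only Actc1, the cardiac actin gene, was called, higher in all 4 comparisons. It was not well above background in either control, so that only bounds hold, at least 2.63-fold on the arrays labelled Srf, 8.35-fold with Mkl1, 1.37-fold with shActb_1 and 8.97-fold with shActb_2. The shActb_1 bound lies under the 2-fold limit. Of the tested genes, 2 of 4 passed the adjusted p as higher on the arrays labelled Srf, 1 of 4 with Mkl1 and 2 of 5 with shActb_1, and with shActb_2 1 was higher and 1 lower of 5. Myog and Myh3 were not well above background in any group.

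Of 6 simple epithelium markers, 5 were tested, and the one call was Cdh1 (E-cadherin), which rose by 1.05 with shActb_2 (adjusted p = 0.000675, limma). At the adjusted p, 2 were higher and 2 lower with shActb_2, 1 was lower on the arrays labelled Srf, 1 was higher with shActb_1 and none passed with Mkl1. The medians were -0.54, -0.34, 0.18 and -0.36 in that order. Ocln was not well above background in any group. The summed level was 0.898 to 0.907 with EGFP, 0.694 to 0.746 on the arrays labelled Srf and 0.734 to 0.747 with Mkl1, and 0.803 to 1.01 with shEGFP, 0.824 to 0.853 with shActb_1 and 0.725 to 0.773 with shActb_2. Cdh1 is among the dimmer probes of this sum, which therefore says little about it.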

How the data were processed

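RNA of 12 samples was labelled with cyanine 3 and hybridized to 1-colour Agilent mouse arrays of 62976 features (the study's methods name the 8 × 60K format, the labels another). The authors read the scans with Feature Extraction 11.5.1.1. Per the file headers, its deposited processed intensity is background-subtracted per spot and not normalized between arrays. The deposited table of log2 values differed from log2 of these intensities by a constant per array (100% of probes within 0.01), with column medians from -4.09 to -3.68, so its columns are shifted copies of those arrays. The spot flags of Feature Extraction were also deposited.

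From the intensity, log2 was taken, control and outlier spots were dropped, repeated spots were averaged per probe, and each array's 75th percentile (843 to 1150) was subtracted. Accessions matched RefSeq names (GRCm38.p6) for 28026 of 55681 probes (50.3%). The array was annotated on another build, so only promoter coordinates, from RefSeq, are given.

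Groups came from sample titles. All 12 arrays were fitted with limma 3.58.1 in R 4.3.3, 1 mean per group, two-sided, with Benjamini-Hochberg adjustment over all probes that both arrays of a compared group had well above background. A probe was called at an adjusted p under 0.05 and over 2-fold. "Rose" and "fell" are used of called probes. The fit was tested on simulated data. A gene is given by its probe with the highest mean signal, and all probes of Gfap and Synm are described. A probe not well above background on every array of 1 group gives a bound: the mean of the brighter group minus, per array, the higher of the dim probe and the lowest signal well above background. Such a bound holds for this processed signal only. The number of arrays limits precision.

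The genes and lists were chosen with earlier results of these data known. Other genes are named by rule: of each list, up to 6 called in at least 1 comparison with a control, and the targeted genes. Prom1, Pax6, Aldh1l1, Snap25, Cryab, Hspb1, Rbfox3, S100b, Slc1a2, Myog, Myh3, Ocln, Lmna and Lmnb1 were named after their values were seen, and the 1-mismatch CArG search was added then. Alternatives were normexp (offset 50, on the median spot signal, the mean not being used here), quantile normalization, a median scaling, the deposited log2 table, 2 other filters, the compared arrays only, within slide, a replicate block, a variance trend, other thresholds, another probe and each array left out.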

Additional observations from a re-analysis of the deposited data

Results flagged for a closer look

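Between the hairpins against Actb, 3 filament genes differed by a test of the difference itself. Ina differed by 1.48 and Nefl by 1.16 on the log2 scale, both higher with shActb_2. Synm (probe A_55_P2052690) was not well above background on either shActb_1 array, so its difference of 1.20, higher with shActb_2, is a lower bound. After the normexp correction it was 0.26 (adjusted p = 0.0519, limma), and it missed the threshold without shActb_1 replicate 1 (adjusted p = 0.0587, limma). The shActb_2 arrays were the only ones on their slide, so hairpin and slide cannot be told apart.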

How the results depend on the processing

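Of 100 recounts of called filament genes under the alternatives, 94 stayed within 1.5 times the value reported. With Mkl1 the count of 3 became 0 with the compared arrays only (adjusted p = 0.0562 for Nefl, 0.0944 for Nes and 0.1 for Krt8, limma) and ranged from 1 to 3 when 1 array was left out, the 1 being without EGFP replicate 1. With the compared arrays only, Nefl on the arrays labelled Srf also missed the threshold (adjusted p = 0.0629, limma). With shActb_1 the count of 2 became 1 under quantile normalization and ranged from 1 to 2 when 1 array was left out, the 1 being without shEGFP replicate 1. At the adjusted p alone, shActb_2 rose from 3 to 7 genes, where 40.3% of all probes passed, and the difference between hairpins from 3 to 6. The share of all probes passing the adjusted p alone was not taken between hairpins, so the 6 cannot be set against it. Ina with shActb_2 passed 2-fold under median scaling (1.0004), without shEGFP replicate 1 (1.04) and without shActb_2 replicate 1 (1.01). With shActb_1, Krt8 passed it without shActb_1 replicate 2 (1.002). The Synm probe A_55_P2074353 did so without shActb_1 replicate 1 (-1.19). No called value changed sign. Among values that were not called, 13 did. When 1 array was left out, the range on the arrays labelled Srf was -0.19 to 0.32 for Nes, -0.94 to 0.33 for Gfap and -0.033 to 0.13 for Des, and with Mkl1 it was -0.79 to 0.48 for Gfap and -0.084 to 0.44 for Ina. In these 5 the sign turned without EGFP replicate 1. Under quantile normalization they were Gfap with Mkl1 (0.17) and Des with shActb_1 (0.046), and under normexp Gfap (-0.044) and Synm (-0.043) with shActb_2. Left-out arrays also turned Gfap with shActb_1 (-0.32 to 0.015, without shEGFP replicate 2), Des with shActb_1 (-0.14 to 0.033, without shActb_1 replicate 1), Gfap with shActb_2 (-0.049 to 0.29, without shEGFP replicate 1) and the Synm probe A_55_P2074353 between Srf and Mkl1 (-0.026 to 0.53, without Mkl1 replicate 2). The causes were not tested. A replicate block left the counts at 3, 3, 2, 3, 5 and 3. Same-numbered arrays correlated in their deviations at 0.0032 to 0.20, and the labels state no pairing. Over all probes, normexp called 843, 367, 250, 677, 903 and 418 against 1970, 996, 582, 2283, 1787 and 1782, and the compared arrays only called 126 with Mkl1. The share of calls that were higher went under quantile normalization from 46.4% to 64.1% with Mkl1, from 27.5% to 45.8% with shActb_2 and from 35.6% to 48.0% between hairpins, and under normexp from 30.2% to 40.4% with shActb_1 and from 27.5% to 42.4% with shActb_2. Comparisons with shActb_2 could not be made within a slide. Dim probes (Gfap, Nefm, Synm) are limited by signal over background.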

Other observations

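For 6 of the filament genes well above background on all arrays, the genes with the most similar pattern were sought by the correlation of the 6 group means over 3019 candidate probes. Nefl was closest to 1110008P14Rik, Nr1d1 and Etv4 (Pearson r = 0.998, 0.992 and 0.992 over 6 groups). Krt8 was closest to Adam8, Them6 and Smtn (0.995, 0.986 and 0.982), and Krt18 to Sbk3, Ttc7b and Slc19a2 (0.997, 0.993 and 0.98). Nes was closest to Tpm2, a tropomyosin gene, Abracl and Cnn1 (0.98, 0.98 and 0.97). Ina was closest to Wnk2, Slain1 and Car2 (0.98 each), and Vim to Spag1, Bmp7 and Smtnl2 (0.99, 0.97 and 0.97). The groups share slides and control arrays, and with 6 points such values describe these arrays only.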
